A study of Mus musculus with 4 samples.

Results

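The cells described here are CD8 T cells that were captured together with group 3 innate lymphoid cells (ILC3) of the mouse small intestine. They were selected on their own counts: at least 1 count of Cd8a or Cd8b1, at least 1 count of Cd3d, Cd3e, Cd3g or Trac, and 0 counts of Cd4. The rule chose 615 of 10043 kept cells, 468 of 5054 in replicate 1 and 147 of 4989 in replicate 2. The study sorted ILC3 from the lamina propria of the small intestine of C57BL/6 mice aged 6 to 8 weeks, marked the cells with sample tags, pooled them and sequenced whole transcriptomes on the BD Rhapsody system, which isolates cells in microwells. The series title concerns Cxxc1 in intestinal ILC3, but both replicates carry the same label, young gut ILC3, with no altered allele and no agent named. There is thus no condition to compare. The antibodies of the sort, the number of animals and whether animals were pooled are not given in the sources used here.

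CD8 T cells recognise peptides on MHC class I through the T-cell receptor, with CD8 as coreceptor, and kill target cells with granzymes and perforin. CD8 is a dimer, either of an alpha and a beta chain (from Cd8a and Cd8b1) or of alpha chains alone, the form carried by many unconventional lymphocytes of the gut. In the intestinal wall, many CD8 T cells become resident, hold on to the epithelium through the integrin CD103, whose alpha chain is encoded by Itgae, and make chemokines and NK-type receptors.

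Replicate 1 holds reads per cell and replicate 2 molecules per cell, so levels were not compared between the runs, and each value is given for replicate 1 first. In replicate 1 the median CD8 T cell had 5326.5 reads from 1158.5 genes, and in replicate 2 it had 2159 molecules from 1168 genes. All other kept cells had medians of 4665.5 and 2376 counts. Of the cell indices, 35 occurred in both runs. CD4 T cells, with a Cd4 count, a CD3 or Trac count and no CD8 count, numbered 831 and 841. Cd4 was also counted in 7.08% and 26.9% of the cells with no CD3 or Trac count. The CD4 T-cell class may thus hold some Cd4-positive cells that are not T cells, and their part in its values was not tested. Stromal cells, which should lack T-cell genes, had at least 2 of Col1a1, Col1a2, Col3a1 and Dcn and no Ptprc count, and numbered 328 and 41, with median depths of 9260 and 4546 counts. Shares of cells are given with the Wilson 95% interval, which covers counting error only.

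CD8 T cells made up 9.26% (8.49 to 10.1) of the kept cells of replicate 1 and 2.95% (2.51 to 3.45) of those of replicate 2. Of the stromal cells, 3 of 328 and 0 of 41 passed the same rule, and for the count of 0 in replicate 2 the floor of 3 counts gives 7.32% and the Wilson upper limit 8.57%. Requiring at least 2 CD8 counts and at least 2 of the 4 CD3 and Trac genes left 390 and 112 cells. A limit in counts is not the same in reads and in molecules, since 2 reads can come from 1 molecule. Of the non-zero values, 26.7% equalled 1 in replicate 1 and 66.3% in replicate 2. Just inside the rule, 38 and 31 members had a single CD8 count, and of these 63.2% and 51.6% had a count of Ccl5. Just outside it, 35 and 50 cells had a CD8 count and no Cd4 but no CD3 or Trac count, and Ccl5 was found in 40.0% and 8.00% of them. A further 17 and 54 cells had CD8 and CD3 or Trac counts together with Cd4, and Ccl5 was found in 58.8% and 75.9% of these.

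The genes that chose the members are described without a test. Cd8a, on chromosome 6 (71373427 to 71379173, plus strand, GRCm38), was counted in 88.7% and 89.8% of the CD8 T cells. Cd8b1, its neighbour on chromosome 6 (71322788 to 71337494, plus strand), was counted in 62.8% (58.4 to 67.1) and 63.3% (55.2 to 70.6). Both chains were counted in 241 and 78 cells, Cd8a alone in 174 and 54, and Cd8b1 alone in 53 and 15, so the pattern had nearly the same proportions in both runs. A cell without a Cd8b1 count may be one in which it was missed. Trac, the constant part of the alpha chain of the alpha-beta receptor, was counted in 79.3% and 87.8%, and Cd3e in 81.8% and 87.8%.

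The 4 further markers listed for these cells, which the rule did not use, were each counted in more of the CD8 T cells than of the CD4 T cells or stromal cells. Ccl5, a chemokine that attracts T cells and myeloid cells (chromosome 11, 83525778 to 83530518, minus strand), was counted in 85.0% (81.5 to 88.0) and 79.6% (72.4 to 85.3) of CD8 T cells, in 53.9% and 55.4% of CD4 T cells and in 14.6% and 9.76% of stromal cells. Its level was 124 and 91.4 per 10000 counts in the CD8 T cells, against 18.4 and 18.6 in CD4 T cells and 9.07 and 5.22 in all other kept cells. Nkg7, a granule membrane protein (chromosome 7, 43437073 to 43438249, plus strand), was counted in 78.8% (74.9 to 82.3) and 73.5% (65.8 to 79.9), against 42.0% and 55.6% of CD4 T cells and 2.74% and 0% of stromal cells. Itgae (chromosome 11, 73090583 to 73147446, plus strand) was counted in 32.1% (28.0 to 36.4) and 49.7% (41.7 to 57.6), against 10.7% and 14.03% of CD4 T cells and 0.915% and 0% of stromal cells. Cd7, a surface protein of T and NK cells (chromosome 11, 121036747 to 121039418, minus strand), was counted in 48.3% (43.8 to 52.8) and 57.1% (49.1 to 64.9), against 7.46% and 13.7% of CD4 T cells and 3.66% and 2.44% of stromal cells. For these 4 genes the intervals of CD8 and CD4 T cells did not overlap in either run. The markers were chosen with earlier results of these data known, so this gap is no separate support. Thinning each cell to 1500 counts lowered the Itgae shares to 19.4% and 43.0% of CD8 T cells and to 6.55% and 11.01% of CD4 T cells, which kept the order.

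**Figure D1:**
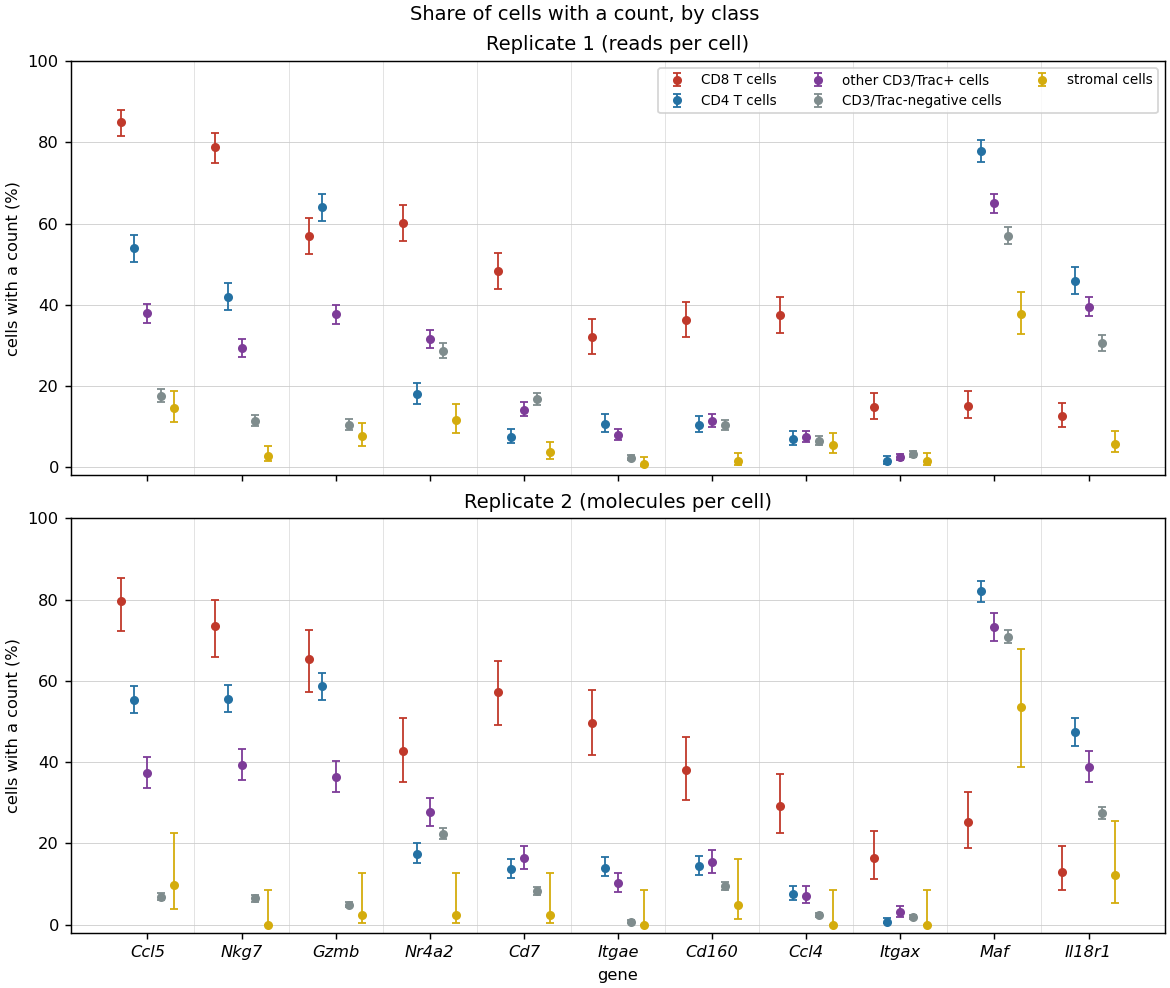
Share of cells with at least 1 count of 11 genes (percent of cells, vertical axis) in CD8 T cells, CD4 T cells, other cells with a CD3 or Trac count, cells with none, and stromal cells, for replicate 1 (top) and replicate 2 (bottom); bars are Wilson 95% intervals. CD8 T cells lie above CD4 T cells for Ccl5, Nkg7, Nr4a2, Cd7, Itgae, Cd160, Ccl4 and Itgax in both runs and below them for Maf and Il18r1, whereas for Gzmb the runs differ in order.

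To compare the CD8 T cells with other T cells of the same preparation, counts were summed per run and class and compared with those of CD4 T cells. Of 11383 genes tested, 201 passed an adjusted p of 0.05 (1.77%) by the quasi-likelihood test of edgeR, with p-values adjusted by Benjamini and Hochberg's method. Of these, 51 were higher in CD8 T cells (0.448%) and 150 lower (1.32%). The same direction in each run on its own was found for 190 of the 201. A call on these same 2 runs favours such agreement, so it is no separate support. Without the run as a term of the fit no gene was called by that test, although 738 had an unadjusted p under 0.05. DESeq2, with the run as a term, called 293. Nothing in the labels says that the runs came from separate animals, so the p-values reflect no more than the variation between 2 runs, which may be technical.

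Chemokines of the CCL3, CCL4 and CCL5 kind rose in CD8 T cells over CD4 T cells. Ccl4, which attracts T cells and NK cells, stood at 7.84 and 4.73 per 10000 counts in CD8 T cells and 0.728 and 1.34 in CD4 T cells. Its log2 fold change was 2.69 ± 0.37 (SE; edgeR quasi-likelihood test, Benjamini-Hochberg adjusted p = 0.00673). Ccl5 rose by 2.46 ± 0.52 on the log2 scale (the same edgeR test, adjusted p = 0.0442), a call that DESeq2 did not make (adjusted p = 0.0770). Ccl3, a close relative of Ccl4, was counted in 14.7% and 4.08% of CD8 T cells against 3.01% and 1.43% of CD4 T cells, and rose by 3.59 ± 0.38 (edgeR adjusted p = 0.00197). Of the 18 chemokines and cytokines tested, these 3 rose, Tnfsf11 (RANKL, an osteoclast and lymphoid-tissue factor) fell by 1.43 ± 0.18 (edgeR adjusted p = 0.00398), and 14 were not called. The median log2 fold change was -0.05 for this list and -0.05 over all genes tested, of which 0.448% were called higher and 1.32% lower. Ifng, the type 1 effector cytokine, was not among the calls: it was counted in 18.6% and 10.9% of CD8 T cells and 26.8% and 30.0% of CD4 T cells, with an edgeR adjusted p of 0.139.

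Several NK-type receptors rose in CD8 T cells. Of 19 tested, 7 rose in CD8 T cells, 0 fell and 12 were not called, with a median log2 fold change of 1.52, against 0.448% of all genes called higher. Klrd1 (CD94), which pairs with NKG2 chains, was counted in 18.8% (15.5 to 22.6) and 20.4% (14.7 to 27.6) of CD8 T cells, against 3.01% and 3.69% of CD4 T cells and 1.52% and 0% of stromal cells, and its log2 fold change was 2.70 ± 0.34 (edgeR quasi-likelihood test, adjusted p = 0.00398). Cd160, a receptor for HVEM found on cytotoxic lymphocytes, was counted in 36.3% and 38.1% of CD8 T cells, 10.5% and 14.4% of CD4 T cells and 1.52% and 4.88% of stromal cells, and rose by 1.86 ± 0.18 (edgeR adjusted p = 0.00128). Klrc1 (NKG2A) rose by 2.33 ± 0.32 and Klrk1 (NKG2D) by 1.47 ± 0.19, with edgeR adjusted p of 0.00679 and 0.00463. The other risers were Klrc2, Klra5 and Cd244a. For each of these 7 genes both runs gave a higher level in CD8 T cells, which a call on both runs favours. Klrc2 had only 3 counts in each class of replicate 2, and Klra5 was found in 1.92% and 8.16% of CD8 T cells.

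Of 15 cytotoxic granule genes and death ligands tested, Cst7, a protease inhibitor of granules, rose by 1.67 ± 0.27 (edgeR quasi-likelihood test, Benjamini-Hochberg adjusted p = 0.0159), and 14 were not called, against 1.77% of all genes called. DESeq2 called 4 of the 15. Gzmb was counted in 57.1% (52.5 to 61.5) and 65.3% (57.3 to 72.5) of CD8 T cells and in 64.0% and 58.6% of CD4 T cells, and the order of the classes differed between the runs. Its share was 7.62% and 2.44% in stromal cells. Gzma was counted in 31.2% and 49.0% of CD8 T cells and 43.2% and 46.7% of CD4 T cells, with 5.18% and 2.44% of stromal cells. Their levels were high in both T-cell classes: Gzmb stood at 27.4 and 37.8 per 10000 counts in CD8 T cells and 31.8 and 25.7 in CD4 T cells. Prf1, the pore-forming protein, was counted in 5.13% and 6.12% of CD8 T cells and 3.01% and 4.28% of CD4 T cells. Nkg7 had a log2 fold change of 1.20 ± 0.30 that missed the threshold (edgeR adjusted p = 0.0846) and passed it in DESeq2 (adjusted p = 0.0147).

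Among 24 homing, residence and egress genes, Itgae and Klf2 rose, 4 fell, among them Cd44, Ccr9 and Cxcr6, and 18 were not called. Over all genes tested, 0.448% were called higher and 1.32% lower. Itgae rose by 1.98 ± 0.37 on the log2 scale (edgeR quasi-likelihood test, adjusted p = 0.0318), with 2.93 and 4.96 per 10000 counts in CD8 T cells and 0.792 and 1.12 in CD4 T cells, and was not called by DESeq2 (adjusted p = 0.0651). Klf2, a transcription factor that drives genes of recirculation, rose by 0.92 ± 0.15 (edgeR adjusted p = 0.0185). It was counted in 44.9% of CD8 T cells in replicate 1 and 10.2% in replicate 2, and in 50.9% and 51.2% of stromal cells. Its share was thus not above that of the deeper stromal cells in either run. Whether stromal cells make Klf2 themselves was not tested, so their share is no sure floor for it. Ccr9, the gut-homing receptor for CCL25, was counted in 22.9% and 31.3% of CD8 T cells and 44.0% and 49.7% of CD4 T cells, and fell by 1.12 ± 0.23 (edgeR adjusted p = 0.0392). Cxcr6, a receptor of resident lymphocytes, fell by 0.62 ± 0.13 (edgeR adjusted p = 0.0446). Cd69, an early activation and retention marker, was counted in 86.8% and 62.6% of CD8 T cells and 79.1% and 57.1% of CD4 T cells and was not called.

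Among 28 transcription factors tested, Eomes, Lef1 and Nr4a2 rose, Maf, Zbtb7b, Prdm1 and Bhlhe40 fell, and 21 were not called. The shares over all genes tested were 0.448% called higher and 1.32% lower. Nr4a2, an orphan nuclear receptor induced by receptor stimulation, was counted in 60.3% (55.8 to 64.6) and 42.9% (35.1 to 50.9) of CD8 T cells, 18.1% and 17.5% of CD4 T cells and 11.6% and 2.44% of stromal cells, and rose by 1.94 ± 0.17 (edgeR quasi-likelihood test, adjusted p = 0.000656). Maf, a factor of helper T cells and ILC3, was counted in 15.2% (12.2 to 18.7) and 25.2% (18.8 to 32.8) of CD8 T cells and 78.0% and 82.2% of CD4 T cells. Its level was 1.31 and 3.13 per 10000 counts in CD8 T cells and 15.6 and 17.8 in CD4 T cells. It fell by 3.08 ± 0.21 on the log2 scale (edgeR adjusted p = 0.000325). Its CD8 share was also under that of the deeper stromal cells, 37.8% and 53.7%, and whether these make Maf themselves was not tested. Zbtb7b, which encodes the CD4-lineage factor ThPOK, was counted in 2.14% and 2.04% of CD8 T cells and 6.14% and 11.4% of CD4 T cells, and fell by 2.41 ± 0.29 (edgeR adjusted p = 0.00365). Runx3, the CD8-lineage factor, was counted in 48.5% and 54.4% of CD8 T cells and 52.9% and 58.0% of CD4 T cells, with a log2 fold change of -0.28 ± 0.13 that was not called (edgeR adjusted p = 0.359). Eomes was counted in 14.1% (11.2 to 17.5) of CD8 T cells of replicate 1 and in 0 of 147 of replicate 2, where no kept cell had a count of it, so its call rests on replicate 1 alone.

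Of 16 costimulation and checkpoint genes tested, 4 fell in CD8 against CD4 T cells (Tnfrsf4, Cd40lg, Icos and Tnfrsf18), 0 rose and 12 were not called. Over all genes, 1.32% were called lower and 0.448% higher. Tnfrsf4 (OX40, a costimulatory receptor) was counted in 2.56% and 2.04% of CD8 T cells, near the 2.13% and 2.44% of stromal cells, and in 30.1% and 24.6% of CD4 T cells, and fell by 4.47 ± 0.33 on the log2 scale (edgeR quasi-likelihood test, adjusted p = 0.000325). Cd40lg, the CD40 ligand of helper cells, was counted in 2.56% and 7.48% against 31.8% and 34.6%, and fell by 3.61 ± 0.43 (edgeR adjusted p = 0.00364). Il12rb2, a chain of the interleukin-12 receptor, was counted in 16.7% and 17.7% of CD8 T cells and 53.2% and 57.2% of CD4 T cells, and fell by 2.45 ± 0.27 (edgeR adjusted p = 0.00207). Il18r1, a chain of the interleukin-18 receptor, was counted in 12.6% and 12.9% against 46.0% and 47.4%, and fell by 2.53 ± 0.20 (edgeR adjusted p = 0.000325). Of 22 cytokine receptors tested, 5 fell (the others being Il18rap, Il1rl1 and Il2ra), 0 rose and 17 were not called, against 1.32% of all genes called lower. Il12rb1, the other chain of the interleukin-12 receptor, was among those not called (log2 fold change -1.29 ± 0.28, edgeR adjusted p = 0.0526).

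Of 18 genes of T-cell receptor signalling, 0 were called by edgeR's quasi-likelihood test or by DESeq2. In edgeR 2 had an unadjusted p under 0.05, and the median log2 fold change was 0.02. Since edgeR called 1.77% of all genes, 0 calls among 18 say little about this list. Lck, the kinase that starts receptor signalling, was counted in 72.6% and 81.0% of CD8 T cells and 68.4% and 75.0% of CD4 T cells, and Trbc2 in 90.0% and 86.4% against 81.6% and 85.1%. Among 7 receptor chains tested, Trdc, Tcrg-C2 and Tcrg-C4 rose and 4 were not called, against 0.448% of all genes called higher. Tcrg-C2 was counted in 25.9% and 46.9% of CD8 T cells, 3.73% and 17.4% of CD4 T cells and 0.610% and 2.44% of stromal cells, and Tcrg-C4 in 19.7% and 24.5%, against 3.61% and 5.35% of CD4 T cells. Their log2 fold changes were 2.15 ± 0.42 for Tcrg-C2 (edgeR quasi-likelihood test, adjusted p = 0.0339) and 2.48 ± 0.20 for Tcrg-C4 (adjusted p = 0.000325). The gamma constant genes are near-identical copies, so how reads were split among them is uncertain. Cd7 rose by 3.04 ± 0.38 (edgeR quasi-likelihood test, adjusted p = 0.00398), from 0.882 and 1.12 per 10000 counts in CD4 T cells to 7.11 and 9.72 in CD8 T cells. Itgax, which encodes the integrin CD11c and stood on the list of myeloid markers, was counted in 14.7% and 16.3% of CD8 T cells and 1.56% and 0.713% of CD4 T cells, and rose by 3.32 ± 0.35 (edgeR adjusted p = 0.00197). The other 9 myeloid markers were each in fewer cells, with Csf1r, C1qa, Ccl22, Cd209a and Flt3 at 0 in the CD8 T cells of both runs.

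The other genes with the largest falls against CD4 T cells, by the rule for named genes, were Tnfsf8 (CD30 ligand), Podnl1, Ecm1, Socs2, Abhd17c, Tmem154 and Rcbtb2, with log2 fold changes between -2.85 for Tnfsf8 and -2.01 for Rcbtb2. Gnptab, a transferase that tags lysosomal enzymes, was the last of the 12 largest rises, at 1.62 ± 0.27 (edgeR quasi-likelihood test, adjusted p = 0.0201). Heat shock genes Hspa1a and Hspa1b fell by 1.43 ± 0.13 and 1.60 ± 0.12 on the log2 scale (edgeR adjusted p = 0.00107 and 0.000325), and the other 6 of that list were not called. Hspa1a was counted in 17.9% and 11.6% of CD8 T cells and 32.5% and 9.51% of CD4 T cells, so the share did not follow the level in replicate 2. Of 14 immediate early genes, 0 were called by edgeR's test, 5 had an unadjusted p under 0.05, and DESeq2 called 1, Atf3. For comparison, edgeR called 1.77% of all genes, 1.32% lower. Both heat shock genes were found in most stromal cells, with shares of 86.9% and 73.2% for Hspa1a, and the part of free RNA in these falls was not tested.

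**Figure D2:**
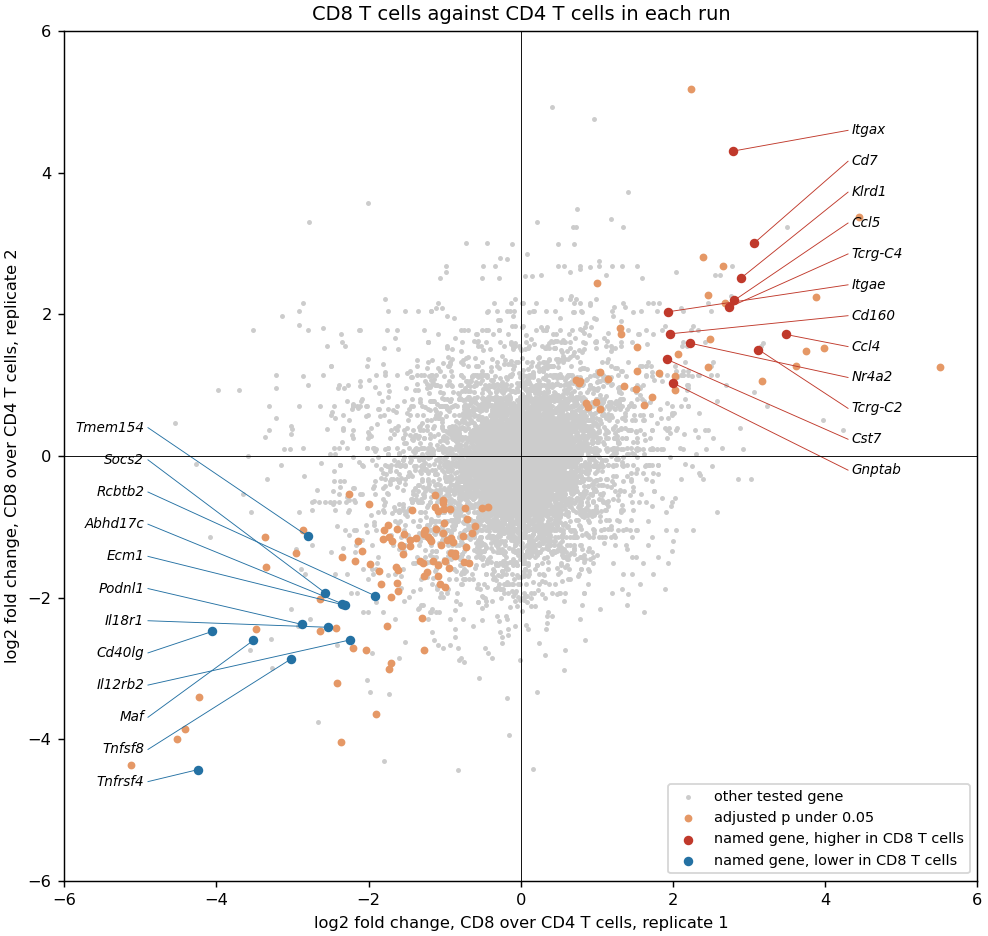
Log2 fold change of CD8 over CD4 T cells in replicate 1 (horizontal axis) and replicate 2 (vertical axis) for the 9584 tested genes with a count in each class of each run; 1 gene lies beyond the axes. Orange, red and blue points passed an adjusted p of 0.05 in edgeR's quasi-likelihood test, and the 24 named genes, which were required to have the same sign in both runs, are labelled (red, higher in CD8 T cells; blue, lower). The other orange points show the rest of the 155 called genes drawn.

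**Figure D3:**
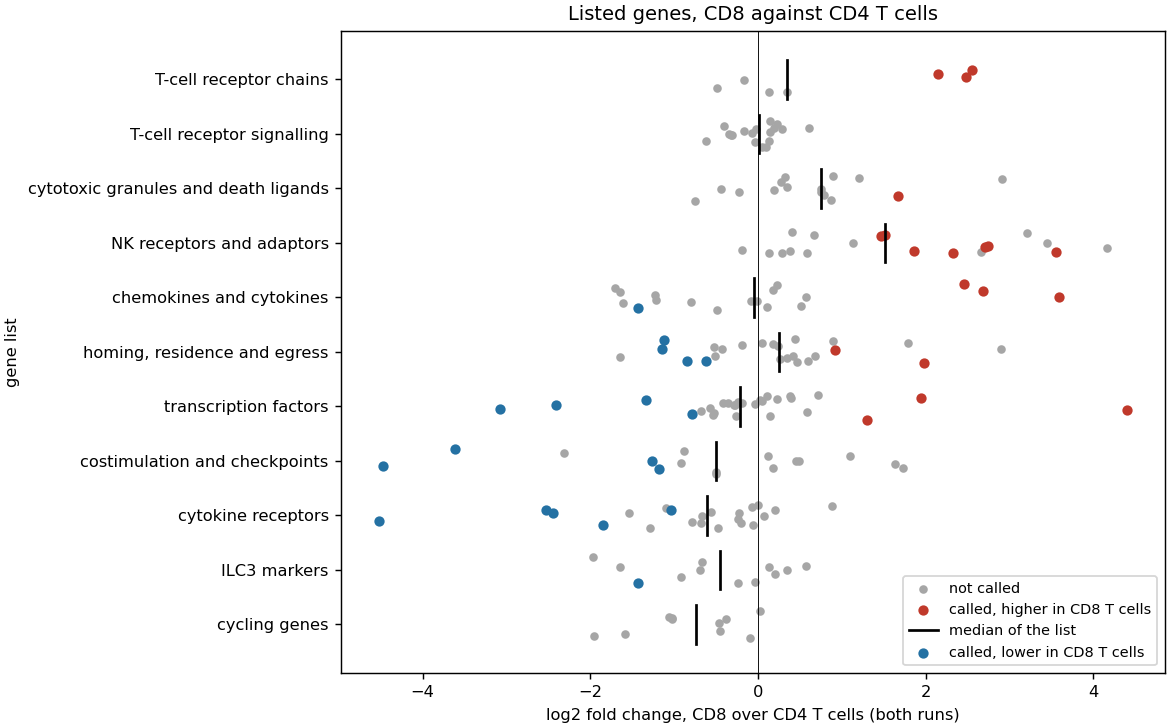
Log2 fold change of CD8 over CD4 T cells, fitted over both runs, for the genes of 11 lists (1 point per tested gene; vertical position within a list carries no value; black bars are list medians). Of the NK receptors and adaptors 7 lie among the called rises, against 0.448% of all genes. No gene of T-cell receptor signalling or of cycling was called, against 1.77% of all genes.

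All other kept cells include the CD4 T cells and, in replicate 1, 2160 cells with no CD3 or Trac count, against 3372 in replicate 2. Of 11768 genes tested, 2717 (23.1%) were called by edgeR's quasi-likelihood test, 733 higher in CD8 T cells (6.23%) and 1984 lower (16.9%). That fit has 1 residual degree of freedom and gave every gene the spread of a common trend, so its p-values can be too small, and on simulated data it made more false calls than the threshold allows. DESeq2 called 1136 genes, and without the run as a term edgeR called 183, 27 higher and 156 lower. An added fit of 4 classes together, chosen after seeing the data, leaves 3 degrees of freedom and compares CD8 T cells with the mean of CD4 T cells, other cells with CD3 or Trac and cells with none. It called 1824 of 11383 genes (16%), 653 higher (5.74%) and 1171 lower (10.3%), and 1742 genes were called in the same direction by both fits. In the paragraphs on this comparison, log2 fold changes are from the first fit and adjusted p-values from the added one.

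The 12 genes with the largest rises against all other kept cells were Ccl5, Itgae, Cd27, Ccl4, Cst7, Cd7, Tcrg-C2, Ifi214, Nkg7, Baiap3, Fam241a and Gzma. Their log2 fold changes ran from 3.89 for Ccl5 to 2.43 for Gzma, and the rule that named them required a higher value in both runs. Cd27, a costimulatory receptor of the TNF receptor family, was counted in 16.9% and 13.6% of CD8 T cells and 3.16% and 0.516% of all other cells (added 4-class edgeR fit, adjusted p = 0.00106). Gzma, whose level did not separate CD8 from CD4 T cells, stood at 15.3 and 39.5 per 10000 counts against 3.80 and 4.98 in all other cells (added edgeR fit, adjusted p = 0.00149). Of the 18 genes of T-cell receptor signalling 15 rose, 0 fell and 3 were not called, in both fits. Of the cytotoxic list 10 rose, 2 fell (Gzmc and Lamp1) and 3 were not called in the first fit, and 7 rose and 1 fell in the added one. Over all genes, the first fit called 6.23% higher and 16.9% lower, and the added one 5.74% and 10.3%.

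The 12 named genes with the largest falls included the immunoglobulin genes Igkc and Igha, the MHC class II gene H2-Ab1 and the growth factors Hbegf and Vegfa. They were Tubb6, Igfbp7, Igkc, Igha, Ctsh, Rnase4, Hbegf, Adgrg3, Cd83, H2-Ab1, Sestd1 and Vegfa, with log2 fold changes from -4.82 for Tubb6 to -3.34 for Vegfa. The falls of Igkc and Igha depended on the deepest cells. Leaving out the highest 5% of total counts moved Igkc from -4.12 to -1.64 and Igha from -4.10 to -1.14. Tubb6 went the other way, to -6.62. Igkc, the kappa light chain of antibodies, was counted in 27.8% and 42.2% of CD8 T cells, against 22.2% and 38.1% of all other cells and 33.8% and 41.5% of stromal cells, with intervals of CD8 T cells and the deeper stromal cells overlapping in both runs. Its summed level was 2.20 and 3.46 per 10000 counts in CD8 T cells and 40.1 and 51.9 in all other cells. Of the ILC3 markers 11 of 12 fell, with a median log2 fold change of -2.52 (added fit: 9 fell). Over all genes, 16.9% were called lower in the first fit and 10.3% in the added one. Il22, the signature cytokine of ILC3, was counted in 14.3% and 23.1% of CD8 T cells, 17.7% and 19.5% of stromal cells and 38.9% and 56.9% of all other cells. The intervals of CD8 T cells and stromal cells overlapped in both runs, and the stromal cells were deeper. In the 50 and 13 members with 1 of the 4 CD3 and Trac genes, the Il22 share was 32.0% and 38.5%. With 2 of them it was 10.8% and 27.3%, with 3 13.7% and 13.0%, and with all 4 11.3% and 27.7%. Cells with a CD8 count, no Cd4 and no CD3 or Trac count had 40.0% and 44.0%. The part of free RNA in the Il22 share was not tested. Summed over the 12 ILC3 markers, the level was 8.99 and 17.3 per 10000 counts in CD8 T cells and 41.0 and 76.8 in all other cells.

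Markers of other cell types were also counted in the CD8 T cells. Of 9 B and plasma cell markers, Cd79a, Ms4a1 and Mzb1 were among those at 0 in both runs, but 39.1% and 57.8% of the CD8 T cells had a count of at least 1 of the list, led by Igkc, against 33.0% and 56.1% of all other cells. Their summed level was 3.55 and 5.94 per 10000 counts, against 57.2 and 92.4. At least 1 of 5 mast-cell markers was counted in 20.5% of the CD8 T cells of replicate 1, against 18.7% of all others. In replicate 2 these shares were 0% and 0.330%. The 10 myeloid markers, led by Itgax, stood at 1.35 and 1.39 per 10000 counts in CD8 T cells and 1.63 and 1.18 in all other cells. Of 10 epithelial markers Epcam was counted, in 0.855% and 3.40% of cells, and the other 9 were at 0. Of the 6 stromal and endothelial markers Cdh5 was at 0, and their summed level was 4.73 and 1.36 per 10000 counts, against 73.4 and 16.3 in all other cells. Of 10 cycling genes 0 were called by either edgeR fit or by DESeq2, and 1 had an unadjusted p under 0.05 in the first fit. That fit called 23.1% of all genes. Top2a, a marker of dividing cells, was counted in 13.2% and 12.2% of CD8 T cells and 7.35% and 7.89% of all other cells.

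The CD8 T cells varied among themselves in the Cd8b1 chain. With Trdc as a further term, 82 of 5634 genes (1.46%) were called between members with and without a Cd8b1 count in edgeR's quasi-likelihood test, 7 higher (0.124%) and 75 lower (1.33%) with Cd8b1. The same direction in each run on its own was found for 67 of the 82, and here too the call itself favours such agreement. This fit too has 1 residual degree of freedom and a common spread for all genes, and it too made more false calls on simulated data than the threshold allows. DESeq2 called 6 genes and the stricter rule for members 34, so the values by run are given here as a description. Cd160 was counted in 39.7% and 45.7% of members with Cd8b1 and no Trdc, and in 25.2% and 28.0% of those with neither. Dpp4 (CD26, a surface peptidase) was counted in 20.2% and 22.8% against 6.11% and 8.00%. The other named genes higher with Cd8b1 were Mctp2, Slamf1, Pdap1 and Arl4c. Gzmk, a granzyme of memory CD8 T cells, was counted in 78 of 294 (26.5%, 21.8 to 31.9) and 25 of 93 members with Cd8b1 (26.9%, 18.9 to 36.7), against 19 of 174 (10.9%, 7.10 to 16.4) and 4 of 54 without (7.41%, 2.92 to 17.6). The intervals of Gzmk did not overlap in either run, but the gene was not called (edgeR adjusted p = 0.0638). Its shares include members with a Trdc count, 43 of the 174 without Cd8b1 in replicate 1, whereas the fit has Trdc as a term.

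Of 16 NK-type receptors and adaptors tested in this split, Cd160 was called higher with Cd8b1 and 5 were called lower (Klre1, Klrb1b, Klra5, Klra7 and Fcer1g). The list's median log2 fold change was -1.04, against 0.01 over all genes tested, of which 0.124% were called higher and 1.33% lower. Fcer1g, a signalling adaptor of NK cells and ILC, was counted in 38 of 174 (21.8%, 16.3 to 28.5) and 23 of 54 (42.6%, 30.3 to 55.8) members without Cd8b1, against 17 of 294 (5.78%, 3.64 to 9.06) and 3 of 93 (3.23%, 1.10 to 9.06) with it. The share in stromal cells was 12.8% and 17.1%, above that of members with Cd8b1 and below that of members without. Klra7, a Ly49-family receptor of NK cells, was counted in 18 of 54 members without Cd8b1 in replicate 2 (33.3%, 22.2 to 46.6) and in 0 of 93 with it. In replicate 1 the same counts were 5 of 174 (2.87%) and 1 of 294 (0.340%). Like those of Gzmk, the shares of Fcer1g and Klra7 include members with a Trdc count. Ikzf2 (Helios, a factor of the Ikaros family) and Tcrg-C1 were also lower with Cd8b1. The 8 named genes with the largest falls were Spry2, Fcer1g, Klrb1b, Tmem176a, Il22, Il1r1, Sdc4 and Rnf130. ILC3 markers moved with this split: their summed level was 7.05 and 5.93 per 10000 counts in members with Cd8b1 and 12.6 and 36.3 without, with 12 of 12 detected in members with Cd8b1 in both runs, Ccr6 at 0 without it in replicate 1, and Ncr1 and Tox2 at 0 without it in replicate 2. Stromal and endothelial markers stood at 1.47 and 1.37 per 10000 counts with Cd8b1 and 10.8 and 1.35 without, with Cdh5 at 0 in each of these, and Col1a2 with Cd8b1 and Dcn without it at 0 in replicate 2. The part of other cells or free RNA in the split was not tested.

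A count of Trdc, the constant part of the delta chain of the gamma-delta receptor, was found in 55 of 468 members (11.8%, 9.14 to 14.99) in replicate 1 and 5 of 147 (3.40%, 1.46 to 7.71) in replicate 2. Its share in stromal cells was 2.13% and 0%, and in all other kept cells 11.1% and 3.76%. Of the Trdc members, 43 of 55 and 4 of 5 had no Cd8b1 count. Only replicate 1 had at least 20 cells with Trdc and without Cd8b1, so the contrast rests on 1 sum, which is assumed to vary like the other sums. edgeR's quasi-likelihood test called 171 of 5634 genes (3.04%), 71 higher (1.26%) and 100 lower (1.77%) with Trdc, and DESeq2 called 1. In replicate 1 the Trdc members without Cd8b1 had 175 counts of Tcrg-C1 and 143 of Tcrg-C4 in 43 cells, against 68 and 51 in 131 cells with neither Trdc nor Cd8b1.

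The members also split by Itgae, the integrin chain of residence. Itgae was counted in 150 of 468 and 73 of 147 members, and shares of other genes are given for cells with and without it, as a description. Cd7 was counted in 75.3% (67.9 to 81.5) and 69.9% (58.6 to 79.2) of members with Itgae and in 35.5% (30.5 to 40.9) and 44.6% (33.8 to 55.9) of those without. Gzmb was counted in 66.0% (58.1 to 73.1) and 82.2% (71.9 to 89.3) against 52.8% (47.3 to 58.3) and 48.6% (37.6 to 59.8). Gzma was counted in 52.0% (44.1 to 59.8) and 60.3% (48.8 to 70.7) against 21.4% (17.2 to 26.2) and 37.8% (27.6 to 49.2). Cd160 was counted in 56.7% and 47.9% against 26.7% and 28.4%. The intervals did not overlap for Cd7 in either run. They overlapped for Gzmb in replicate 1 and for Gzma and Cd160 in replicate 2. Klf2 went the other way, at 36.7% and 1.37% with Itgae against 48.7% and 18.9% without, with overlapping intervals in replicate 1. Eomes, with no count in replicate 2, was counted in 3 of 150 members with Itgae and 63 of 318 without in replicate 1. Tcrg-C2 was counted in 48.0% of members with Itgae and 15.4% without in replicate 1, but in 50.7% and 43.2% in replicate 2, where the intervals overlapped. Trdc was counted in 23.3% with Itgae and 6.29% without in replicate 1, and in 0 of 73 and 5 of 74 in replicate 2, so the runs differed in order, as they did for Fcer1g (16% against 9.75%, then 9.59% against 25.7%). Members with Itgae were deeper, with medians of 5910 and 2226 counts against 5114 and 2016.5. ILC3 markers moved with this split too, at 4.87 and 3.81 per 10000 counts with Itgae and 11.3 and 31.4 without. In members with Itgae, Ccr6 and Arg1 were at 0 in replicate 1 and Il23r in replicate 2, and in those without, Ncr1, Arg1 and Tox2 were at 0 in replicate 2. Stromal and endothelial markers stood at 6.57 and 1.10 with Itgae and 3.69 and 1.64 without. The part of depth or other cells in these differences was not tested.

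**Figure D4:**
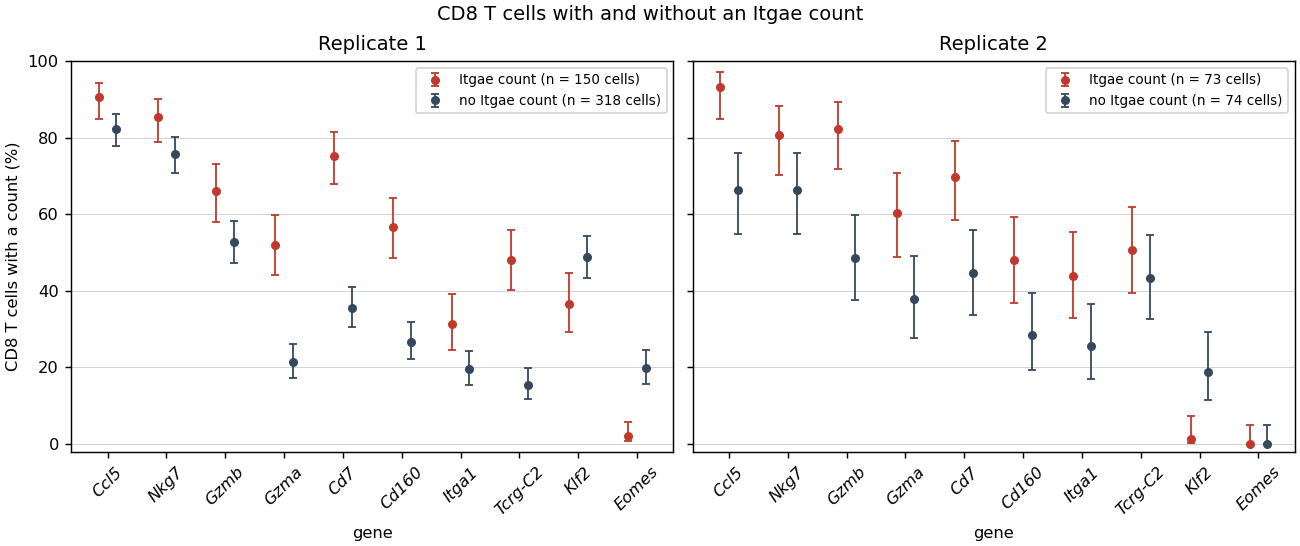
Share of CD8 T cells with at least 1 count of 10 genes (percent, vertical axis) among members with and without an Itgae count, in replicate 1 (left, 150 and 318 cells) and replicate 2 (right, 73 and 74 cells); bars are Wilson 95% intervals. Cd7, Gzma, Cd160 and Gzmb were counted more often with Itgae in both runs, and Klf2 less often.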

How the data were processed

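Per the file headers, the deposited counts per gene and cell came from BD's WTA Multiplex Rhapsody pipeline, release 1.8 in replicate 1 and 1.9.1 in replicate 2, with GRCm38 and GENCODE M19. They are reads in replicate 1 and molecules in replicate 2. Per the submitters' processing notes, HISAT2 2.0.5 and Bowtie2 were also named. The authors' deposited tag list assigns the young ILC3 to tag 8 in replicate 1 (the labels' characteristics give 4, to which no cell was called) and to tag 12 in replicate 2, with 5302 and 5010 cells. Cells the authors called multiplets were left out, and no doublet caller was run here. Cells with at least 300 genes and under 20% mitochondrial counts were kept. The members and lists were chosen with earlier results of these data known.

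Counts were summed per run and class (at least 20 cells) over the 19380 genes in both tables and tested with the quasi-likelihood F test of edgeR 4.0.16 (R 4.3.3), using TMM normalization and filterByExpr with a minimum of 10 per sum and 15 in total, with Benjamini-Hochberg adjustment at 0.05 and the run as a block, because classes of a run come from the same pool of cells. The CD4 T-cell comparison fitted 4 classes together (3 residual degrees of freedom). The 7 genes of the rule were not tested. Levels are per 10000 counts of a class, and log2 fold changes of single runs use a prior count of 2. The scripts were tested on simulated data. Named genes are the 12 largest rises and 12 largest falls per comparison (8 and 8 within the members) among called genes with the same sign in both runs and a count in at least 10% of the cells of the higher class in both, plus the marker genes and, to describe a list, the members with the highest level and any that moved against the rest. Other genes, among them Gzmk, Klra7, Trdc and Runx3, were named from the lists after their values were seen. Alternatives were DESeq2 1.42.0, no low-count filter, a stricter rule for members, at least 500 genes with under 10% mitochondrial counts, leaving out the highest 5% of total counts, no run term, each run alone, and thinning to 1500 counts. Gene positions are from GENCODE M21 on GRCm38.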

Additional observations from a re-analysis of the deposited data

How the results depend on the processing

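All 63 values of named genes kept their direction under each alternative on both runs, but not always their size. Against all other kept cells, leaving out the highest 5% of total counts moved Igkc from -4.12 to -1.64 and Igha from -4.10 to -1.14. Their direction in each run alone was mostly fixed by the rule that named them and says nothing of stability. The count of 2717 genes for CD8 T cells against all other kept cells became 1136 with DESeq2 and 183 without the run term (no replicate block), of which 27 were higher and 156 lower. The count of 201 against CD4 T cells became 737 without the low-count filter and 0 with no replicate block. The count of 82 for the Cd8b1 split became 6 with DESeq2, 34 with the stricter rule for members and 5 with no replicate block, and that of 171 for the Trdc split became 1 with DESeq2 and 0 with no replicate block. The share of CD8 T cells became 7.72% in replicate 1 and 2.24% in replicate 2 under the stricter rule, which leaves fewer cells by construction. The causes of the other shifts were not tested. Among named genes, 73 values lost their call and 2 gained one, 41 of the losses with no replicate block. Each run alone gives log2 fold changes and no test. Thinning to 1500 counts moved shares of cells down, for example Nkg7 in replicate 1 from 78.8% to 62.1%. A gene in few of the 147 members of replicate 2, such as Klrc1, is measured with little depth.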
